A study of Rattus with 12 samples.

Results

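Transcripts of 39 genes that build synaptic vesicles and release or recover them were measured in rat brain cell co-cultures exposed to the opioid fentanyl. The 39 were chosen by gene symbol for their presynaptic role, from 17337 genes in the table of counts, by a rule that uses no measured value, although earlier results of these data were known when it was written. All 39 were in the table, and all 39 passed the filter on low counts that left 12271 genes for testing. The genes cover 6 vesicle membrane proteins, 3 vesicle clustering proteins, 7 calcium sensors, 8 SNAREs and their regulators, 10 active zone and Rab3 proteins, and 5 endocytic proteins.

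Neurotransmitter is packed into synaptic vesicles, which are held near the release site by synapsins. Scaffold proteins of the active zone (Bassoon, Piccolo, RIM, RIM-BP, ELKS and Munc13) dock and prime the vesicles. SNARE proteins of the vesicle (VAMP) and of the plasma membrane (syntaxin and SNAP25) then zip together, complexins hold the complex ready, and synaptotagmins trigger fusion when calcium enters. NSF and its adaptors take the used SNARE complexes apart, and dynamin, amphiphysin and synaptojanin recover the membrane by endocytosis. These genes are characteristic of neurons, while a few of them, such as Bin1, are also expressed widely in other cells.

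The cultures combined cortical neurons, astrocytes and oligodendrocyte precursor cells from Sprague Dawley rats. At 24 to 26 days in vitro they were left untreated or received 0.01 µM (low dose) or 10 µM (high dose) fentanyl for 4 days, with 4 cultures in each of the 3 conditions. The cells of the 3 kinds were bought and combined, and poly(A) RNA of the whole culture was sequenced, so neuronal transcripts were read against a background of glial RNA. Cultures are named here by the letter in their label. Untreated cultures were A, G, M and P, low dose cultures were B, H, N and Q, and high dose cultures were C, I, O and R. The letters run consecutively across the conditions (P-Q-R, M-N-O, G-H-I and A-B-C), and these 4 letter sets were used as blocks, although the labels do not say what a letter stands for. The study calls the 4 cultures of a condition biological replicates, and the labels do not say whether they came from separate animals or platings. The p-values measure the spread between these samples.

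Total counts ranged from 12059872 to 24813893 per culture. The 39 presynaptic genes together took 0.686% to 0.840% of the counts in 11 cultures, and 0.174% (26689 counts) in untreated culture G. All 18 neuron markers had at least 10 counts in every culture, including G. The mean log2(CPM + 1) over these neuron markers was 5.02 in G and 7.44 to 7.82 in the other 11, where CPM is the count relative to library size, scaled by the trimmed mean (TMM) method. The mean over the 7 of 8 fibroblast markers that passed the filter was 7.81 in G and 3.66 to 6.86 elsewhere. Its part in the values of G was not tested. Oligodendrocyte precursor markers were present in all cultures, and the endothelial markers Cdh5, Cldn5 and Tie1 were at 0 in some cultures.

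Culture G had few neuronal and presynaptic transcripts and high fibroblast markers for a culture labelled like the others. Its label and handling were not checked beyond these levels, so each value against untreated is given with and without it where its direction turns. The mean log2(CPM + 1) over the 39 genes was 3.98 in G, against 6.67 in A, 6.70 in M and 6.52 in P. It was 6.62 in B, 6.56 in H, 6.50 in N and 6.40 in Q at the low dose, and 6.62 in C, 6.75 in I, 6.66 in O and 6.59 in R at the high dose. Only G lay outside the range of 6.40 to 6.75. The presynaptic mean minus the neuron marker mean was -1.20 to -0.92 over all 12 cultures, and -1.04 in G. In bulk RNA, fewer neurons and less presynaptic RNA per neuron cannot be told apart.

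**Figure D1:**
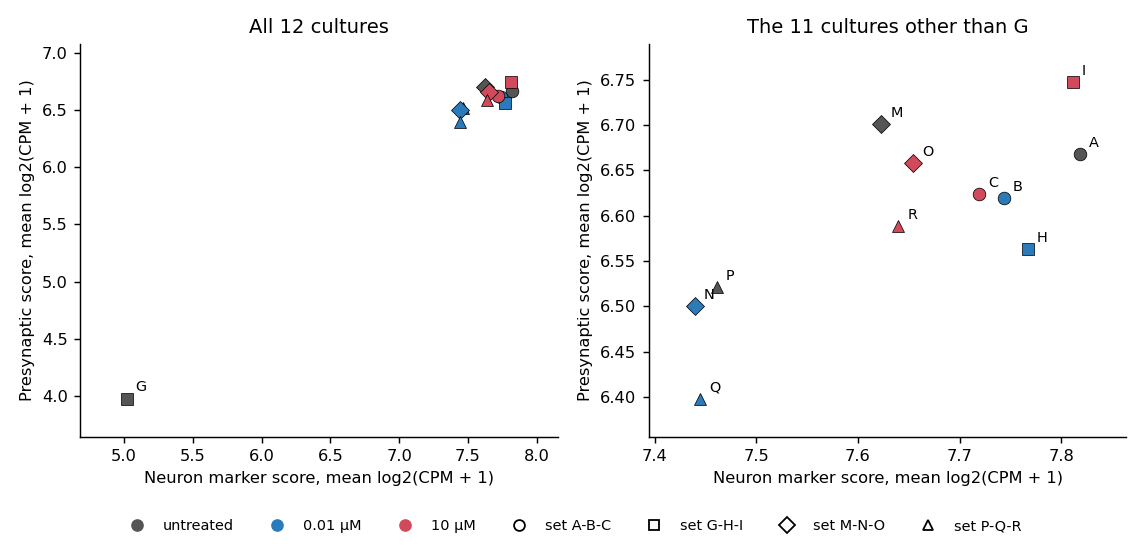
Mean log2(CPM + 1) of the 39 presynaptic genes (vertical axis) against that of 18 neuron markers (horizontal axis), 1 point per culture, coloured by dose and shaped by letter set, with the right panel leaving out G. Culture G stood at 5.02 and 3.98, and the other 11 lay between 7.44 and 7.82 on the neuron axis and between 6.40 and 6.75 on the presynaptic axis.

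The loss in G was uneven across the genes. In G, 30 of the 39 were under 25% of their median in the other 11 cultures, against 7.97% of all genes tested. The median gene was at 13.6% of that level, next to 15.1% for neuron markers and 100% for all genes tested. By role, the median was 2.90% for the clustering genes, 12.2% for active zone and Rab3 genes, 13.6% for calcium sensors, 13.8% for SNAREs and regulators, 15.1% for vesicle membrane genes and 18.1% for endocytic genes. Rph3a (rabphilin, a Rab3 effector) at 2.24%, Sncb (β-synuclein) at 2.27% and Cplx1 (complexin 1) at 2.70% were lowest. Syt2 and Doc2b had only 3 and 2 counts in G, so their levels there were poorly measured.

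In G, 7 presynaptic genes were above 40% of the median of the others. Sv2c, a vesicle glycoprotein, was at 11.8 CPM in G and at 3.58 to 12.1 CPM in the other 11, so G lay within their range. Syt4 was at 474 CPM in G, also within the range of 332 to 681 CPM of the others. Syt11 was at 257 CPM in G, below the 336 to 477 CPM of the others. Bin1 was at 53.9% of the median of the others, Synj1 at 48.8%, Stxbp5 at 47.0% and Cplx2 at 42.8%. Just outside and inside the limit of 25% were Erc2 at 26.4% and Syn3 at 24.3%. Syt4 and Syt11 encode synaptotagmins that do not bind calcium as the fusion sensors do, and Stxbp5 encodes tomosyn, an inhibitor of SNARE assembly.

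**Figure D2:**
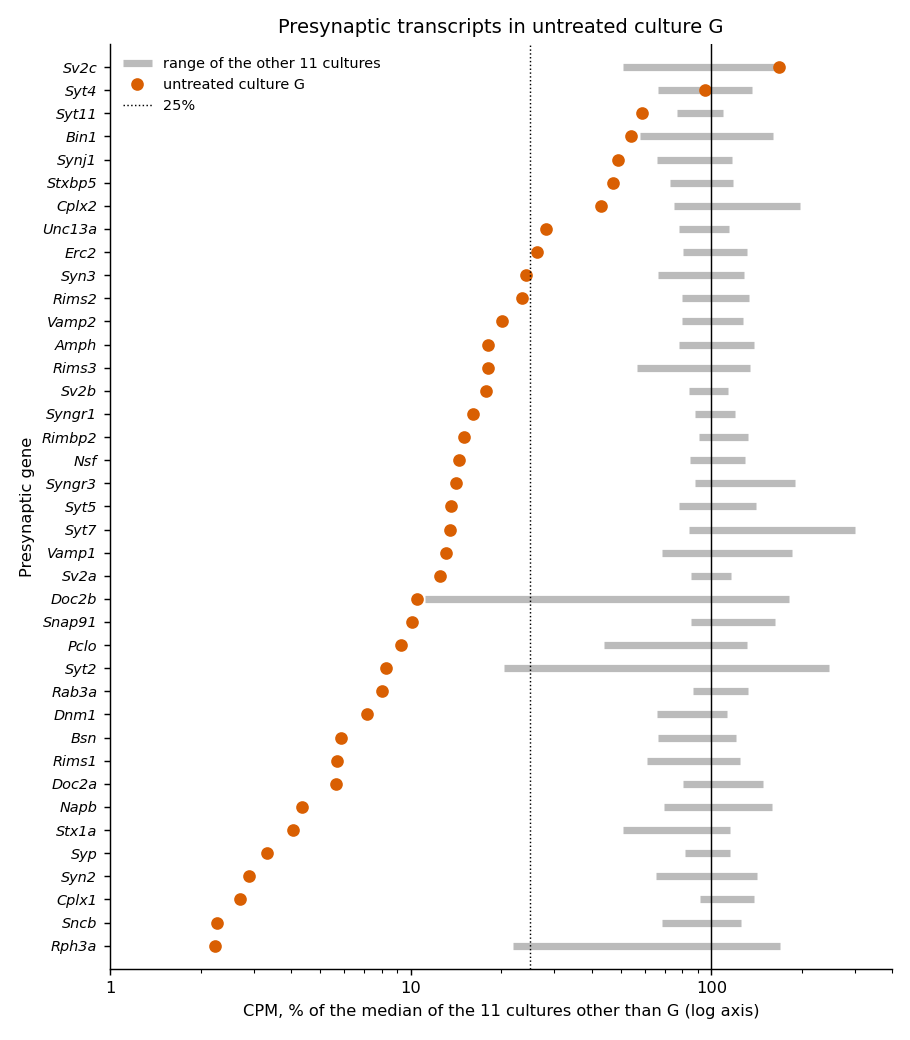
CPM of each presynaptic gene in untreated culture G (points), as a percentage of its median in the other 11 cultures, whose range is shown by the grey bars, on a log axis. Points run from 2.24% (Rph3a) to 168% (Sv2c), and 30 of 39 lie left of the dotted line at 25%.

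Each dose was compared with the untreated cultures and with the other dose in edgeR's quasi-likelihood test over all 12 cultures, with 1 factor of unwanted variation estimated from the replicates (RUVs). Genes were called where the log2 fold change was beyond 0.5 and the Benjamini-Hochberg adjusted p was under 0.05. No presynaptic gene was called at the low dose against untreated, at the high dose against untreated, or between the doses, and neither was any other gene (0.00% in each comparison). The smallest adjusted p among the 39 was 1.0 in each comparison by edgeR's quasi-likelihood test. Unadjusted p-values were under 0.05 for 2 of the 39 at the low dose (Syt5 and Doc2a, against 0.742% of all genes), for 1 at the high dose (Syt5, against 1.19%) and for 0 between the doses (against 1.17%). The study, with RUVseq and edgeR at the same thresholds, did report differentially expressed genes in each comparison. Among them were synaptic transmission genes lower at the low dose. It does not state its RUV procedure or number of factors. The fit made here over all 12 cultures is called the reported fit below.

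The median log2 fold change of the 39 genes was 0.18 at the low dose and 0.31 at the high dose against untreated, and 0.12 for high against low dose. Over all genes tested the medians were 0.01, 0.00 and -0.01. The fitted level was above untreated for 28 of the 39 at the low dose and 35 at the high dose, and was above the low dose for 30 at the high dose. Of all 12271 genes tested, 6551, 6237 and 5842 were higher in these comparisons. Neuron markers had medians of 0.26, 0.34 and 0.12. The direction at the low dose rested on single cultures, since the median was -0.14 without G and -0.05 without N. With the letter sets as blocks and G left out, it was -0.15 at the low dose (6 of 39 higher), 0.02 at the high dose (21 higher) and 0.11 between the doses (30 higher). Of all 12337 genes tested in that fit, 6254, 6217 and 5961 were higher. The neuron marker medians in that fit were -0.10 (5 of 18 higher), 0.02 (11 higher) and 0.12 (15 higher), so their low dose direction turned as well.

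**Figure D3:**
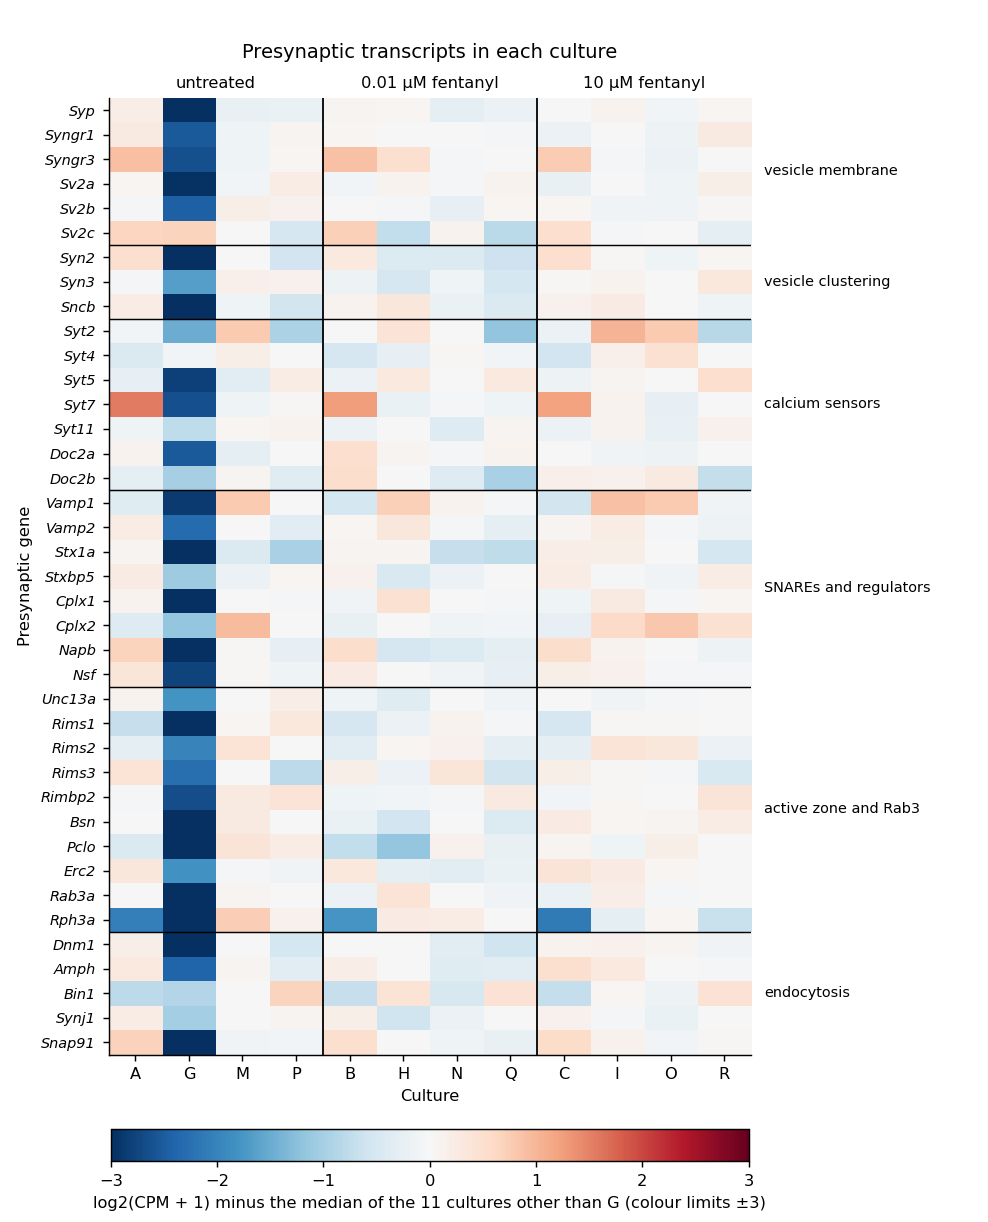
log2(CPM + 1) of the 39 presynaptic genes (rows, grouped by role) in the 12 cultures (columns, grouped by dose), as the difference from the median of the 11 cultures other than G, with colours limited to ±3. The column of G is blue for most genes and near the others for Syt4, and cultures A, B and C share high Syt7 and low Rph3a.

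With G left out and the letter sets as blocks, the test had smaller errors. Still no presynaptic gene was called by the quasi-likelihood test in any comparison, against 0.00% of all genes at the low dose, 0.122% at the high dose and 0.113% between the doses. At the low dose against untreated, 9 of the 39 were lower at an unadjusted p under 0.05 (Syn3, Vamp1, Napb, Unc13a, Rims2, Rimbp2, Bsn, Pclo and Amph), against 3.19% of all genes. Syt5 alone of the 39 was higher at that p, against 4.35% of all genes. At the high dose against untreated, Syt5 and Stx1a were higher (5.76% of all genes) and Rph3a was lower (3.67%). Between the doses, 14 were higher at the high dose (7.75% of all genes) and Syngr3 and Rph3a were lower (5.85%). The 14 were Syn2, Syn3, Syt2, Syt4, Stx1a, Stxbp5, Cplx2, Napb, Rims2, Bsn, Pclo, Erc2, Dnm1 and Amph. Of the 18 neuron markers, 3 were lower and 0 higher at the low dose against untreated by that p. Between the doses 5 of these markers were higher at the high dose and 1 was lower.

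The same layout tested by edgeR's likelihood ratio test, which does not allow for uncertainty in each gene's dispersion, called 2 presynaptic genes. Rph3a was lower at the high dose than in untreated cultures (log2 fold change -0.57, SE 0.15, adjusted p = 0.0174), and Pclo was higher at the high than at the low dose (0.54, SE 0.17, adjusted p = 0.0442). The same test called 0.0730% of all genes at the low dose against untreated, 1.18% at the high dose against untreated and 1.35% between the doses. This test was added after the data were seen, and neither gene was called in the reported fit.

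Directions within letter sets were then counted. In sets P-Q-R, M-N-O and A-B-C, which do not hold G, 19 of the 39 were lower at the low dose than untreated in all 3 sets, against 13.7% of all genes. Syt5 and Doc2a were higher in all 3, against 13.9%. Of 18 neuron markers 7 were lower in all 3 and 0 were higher. The mean over the presynaptic genes differed from untreated by -0.12 in P-Q-R, -0.20 in M-N-O and -0.05 in A-B-C on the log2 scale, and that over the neuron markers by -0.02, -0.18 and -0.08. Other marker means also differed in M-N-O, by 1.81 for fibroblast, 1.17 for microglia, -0.49 for astrocyte and -1.34 for oligodendrocyte markers. Low dose culture N had a fibroblast marker mean of 6.86, the highest after G. In P-Q-R and A-B-C the fibroblast means differed by 0.57 and 0.15 and the astrocyte means by 0.10 and 0.29. Relative to the neuron marker mean of the same culture, 9 of the 39 were lower in all 3 sets (2.86% of all genes) and 2 were higher (30.0%). The 9 were Syn2, Syn3, Vamp1, Napb, Rimbp2, Bsn, Pclo, Dnm1 and Amph. By this measure 3 of the 18 neuron markers were lower in all 3 sets and 4 were higher. The neuron mean itself was lower in all 3 sets, so subtracting it raised every gene, and the shares over all genes reflect that. The part of the other cell types in the low dose values was not tested.

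For the high dose against untreated, Syt5, Stx1a and Erc2 were higher in those 3 sets (15.1% of all genes). Lower in all 3 were 8 of the 39 (14.5%), namely Syngr3, Sv2a, Syt7, Vamp1, Unc13a, Rims2, Rph3a and Synj1. The presynaptic mean differed by 0.07 in P-Q-R, -0.04 in M-N-O and -0.04 in A-B-C. No direction was shared by most of the 39 genes at the high dose.

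Between the doses all 4 sets could be used. Higher at the high dose in all 4 were 13 of the 39, against 11.7% of all genes, and 3 were lower in all 4 (Syngr3, Doc2a and Rph3a), against 11.1%. Of the neuron markers, 3 of 18 were higher in all 4. The presynaptic mean was higher by 0.19 in P-Q-R, 0.16 in M-N-O, 0.18 in G-H-I and 0.0046 in A-B-C, and the neuron marker mean differed by 0.20, 0.21, 0.04 and -0.02. The astrocyte marker mean differed by -0.40, -0.41, -0.28 and 0.03 in the same sets. Oligodendrocyte precursor markers were higher by 0.08, 0.34, 0.21 and 0.23, and fibroblast markers differed by -0.09, -1.83, -0.35 and 0.16. The part of these cell types in the difference between the doses was not tested. Relative to the neuron marker mean, Syn2, Stx1a, Cplx2, Dnm1 and Amph were higher in all 4 sets (2.55% of all genes). Lower by that measure were Syngr3, Sv2a, Doc2a, Rab3a and Rph3a (22.9%). Of the 18 neuron markers, 3 were higher and 3 lower in all 4 sets by that measure. The neuron mean was higher in P-Q-R, M-N-O and G-H-I, so subtracting it lowered every gene there, and the shares over all genes reflect that.

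**Figure D4:**
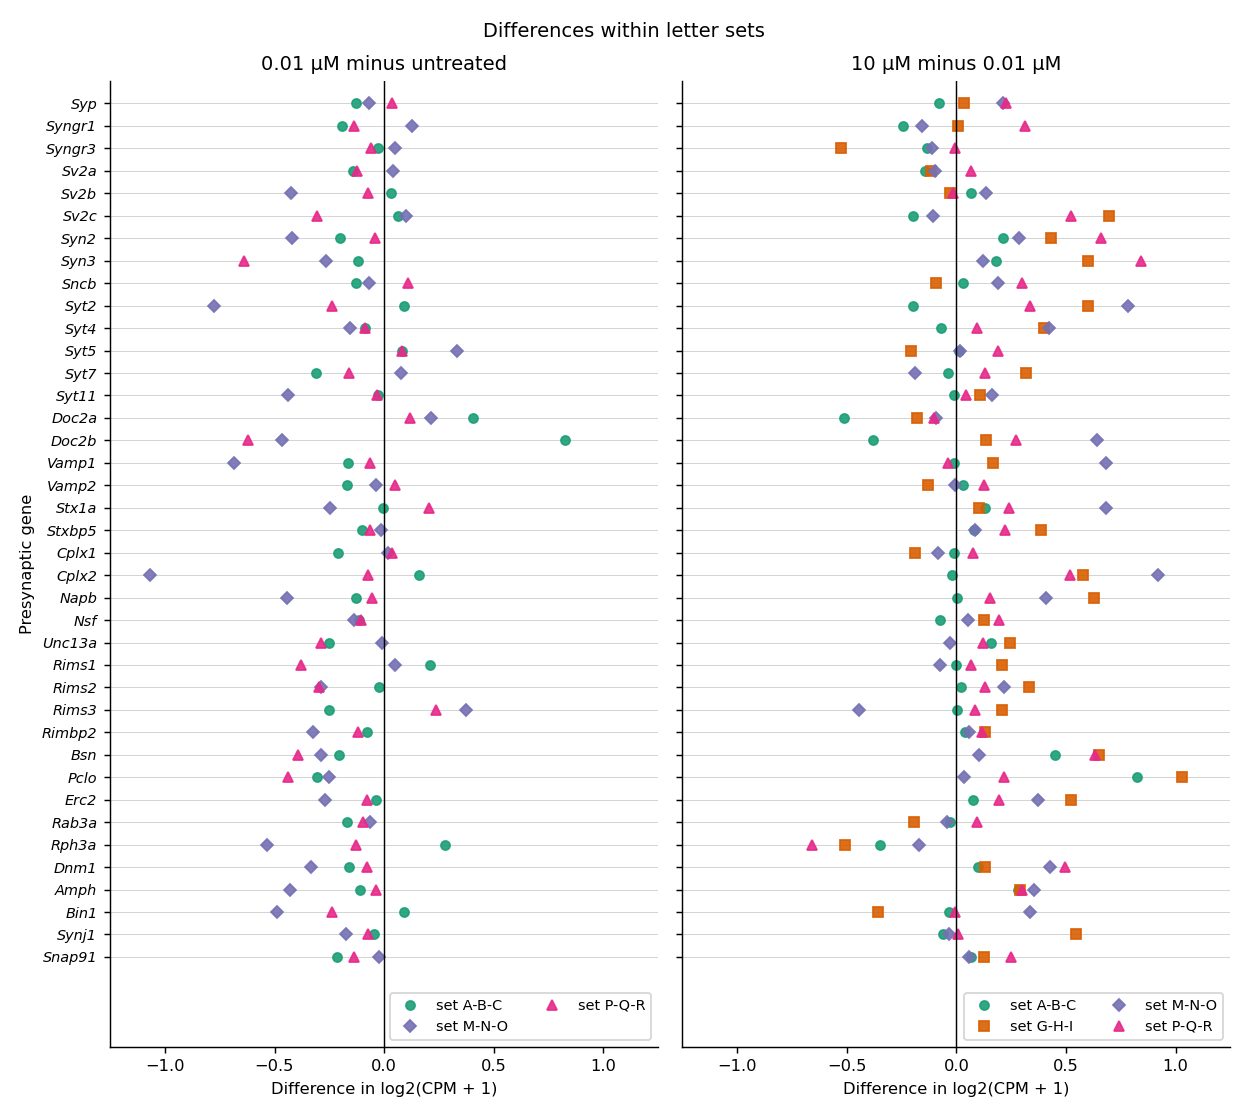
Differences in log2(CPM + 1) within letter sets for each presynaptic gene, low dose minus untreated on the left (3 sets without G) and high minus low dose on the right (4 sets), with 1 symbol per set and a line at 0. On the left 19 genes have all 3 symbols below 0, and on the right 13 genes have all 4 above 0.

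None of the 6 vesicle membrane genes was lower or higher at the low dose than untreated in all 3 sets without G. Synaptophysin (Syp), a major integral protein of the vesicle membrane, was at 443 CPM in A, 328 in M, 334 in P and 12.8 in G. At the low dose it was at 405 (B), 400 (H), 313 (N) and 342 (Q) CPM, and at the high dose at 383 (C), 410 (I), 363 (O) and 399 (R) CPM. Apart from G, the 3 conditions overlapped. The log2 fold change for the high dose against untreated was 0.60 (SE 0.30) with G and 0.06 (SE 0.09) in the blocked fit without G. Sv2a, the binding site of the antiepileptic drug levetiracetam, ranged from 381 to 466 CPM in untreated cultures without G, where it was at 50.1 CPM. It was at 377 to 433 CPM at the low dose and 341 to 449 CPM at the high dose. Its high against low dose fold change was -0.06 (SE 0.20). Sv2c differed from untreated by -0.26 (SE 0.44) at the low and -0.13 (SE 0.44) at the high dose, and by 0.13 (SE 0.20) at the high dose in the blocked fit without G.

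Of the 3 clustering genes, Syn2 and Syn3 were lower at the low dose than untreated in the 3 sets without G and higher at the high than at the low dose in all 4, against 13.7% and 11.7% of all genes. Relative to the neuron marker mean, both were lower in the 3 sets, but only Syn2 was higher in all 4. Synapsin 3 (Syn3), one of the phosphoproteins that tether vesicles to each other and to actin, was at 8.85 (A), 2.21 (G), 10.1 (M) and 9.98 (P) CPM in untreated cultures. It was at 8.08 (B), 6.12 (H), 8.29 (N) and 6.05 (Q) CPM at the low dose and at 9.30 (C), 9.78 (I), 9.09 (O) and 11.7 (R) CPM at the high dose. Every high dose culture lay above every low dose culture. Of the 39 genes, Syn3 and Bsn were separated in this way, against 0.668% of all genes. The two-sided exact permutation p was 0.0286 for each, the smallest that the 70 arrangements of 4 against 4 allow. Any gene separated in this way gets that p. It was not corrected for the 39 genes, and the arrangements did not keep cultures within their letter sets. In the reported fit the log2 fold change of Syn3 was 0.46 (SE 0.23, adjusted p = 1.0 by edgeR).

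Synapsin 2 (Syn2) showed the letter sets more than the doses. It was at 176 (A), 125 (M) and 84.2 (P) CPM in untreated cultures other than G, and at 3.63 CPM in G. The low dose cultures were at 153 (B), 94.9 (H), 93.6 (N) and 81.8 (Q) CPM, and the high dose cultures at 177 (C), 128 (I), 114 (O) and 130 (R) CPM. Within each set the high dose culture was above the low dose culture, while the groups overlapped. The fold change between the doses was 0.37 (SE 0.38), and 0.41 (SE 0.11, adjusted p = 0.155 by edgeR's quasi-likelihood test) in the blocked fit without G. Sncb, a synuclein of the nerve terminal, ranged from 303 to 518 CPM in A, M and P, from 327 to 557 CPM at the low dose and from 402 to 521 CPM at the high dose, all overlapping, and was at 10.1 CPM in G.

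Of the calcium sensors, Syt5 and Doc2a had the smallest p-values against untreated. Syt5, a vesicle synaptotagmin, was at 92.4 (A), 15.0 (G), 85.9 (M) and 128 (P) CPM in untreated cultures. It was at 97.8 (B), 134 (H), 108 (N) and 136 (Q) CPM at the low dose, and at 98.7 (C), 116 (I), 110 (O) and 155 (R) CPM at the high dose. Each treated culture was above the untreated culture of its set. The log2 fold changes were 0.50 (SE 0.21) at the low and 0.52 (SE 0.21) at the high dose, with an adjusted p of 1.0 by edgeR for both. Without G, in the blocked fit, they were 0.20 (SE 0.08) and 0.21 (SE 0.08), smaller than with G.

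Doc2a, a high-affinity calcium sensor, was at 7.49 (A), 0.389 (G), 5.55 (M) and 6.90 (P) CPM when untreated. At the low dose it was at 10.2 (B), 7.35 (H), 6.59 (N) and 7.57 (Q) CPM, and at the high dose at 6.87 (C), 6.37 (I), 6.12 (O) and 6.99 (R) CPM. The low dose culture had the highest level in all 4 sets. The low dose log2 fold change against untreated was 0.63 (SE 0.24, adjusted p = 1.0 by edgeR), and 0.27 (SE 0.14) in the blocked fit without G. Syt4 and Syt11 differed by -0.09 (SE 0.22) and -0.07 (SE 0.12) at the low dose, and by 0.15 (SE 0.22) and 0.02 (SE 0.12) at the high dose. In the blocked fit without G, Syt11 differed by -0.10 (SE 0.08) at the high dose. Syt2 and Doc2b stayed under 6 CPM in all cultures.

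In the SNARE group, 4 of 8 were lower at the low dose than untreated in the 3 sets without G (Vamp1, Stxbp5, Napb and Nsf), against 13.7% of all genes. Relative to the neuron marker mean, only Vamp1 and Napb of these were lower in all 3. Between the doses Stx1a, Stxbp5 and Napb were higher at the high dose in all 4 sets, against 11.7% of all genes. Relative to the neuron marker mean, only Stx1a of these was higher in all 4. Stx1a (syntaxin 1A, the plasma membrane SNARE) was at 145 (A), 5.58 (G), 101 (M) and 69.6 (P) CPM in untreated cultures. It was at 145 (B), 144 (H), 85.1 (N) and 80.4 (Q) CPM at the low dose and at 159 (C), 155 (I), 137 (O) and 95.2 (R) CPM at the high dose. The high dose culture was the highest of its set in all 4 sets, while the groups overlapped. The high dose log2 fold change against untreated was 0.84 (SE 0.38, adjusted p = 1.0 by edgeR), and 0.31 (SE 0.11, adjusted p = 0.404) in the blocked fit without G. Its vesicle partner Vamp2 (synaptobrevin 2) ranged from 700 to 1031 CPM in A, M and P, from 725 to 1116 CPM at the low dose and from 791 to 1020 CPM at the high dose. Vamp2 was at 176 CPM in G, and its fold change between the doses was 0.01 (SE 0.23).

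The complexins clamp and then assist the SNARE complex. Cplx1 was at 288 (A), 7.26 (G), 269 (M) and 259 (P) CPM untreated, at 249 to 372 CPM at the low dose and at 247 to 327 CPM at the high dose. Its low dose fold change of 0.66 (SE 0.39) became -0.03 (SE 0.08) in the blocked fit without G. Cplx2 was at 22.4 (A), 12.7 (G), 58.3 (M) and 29.7 (P) CPM untreated. It was at 25.1 (B), 29.8 (H), 27.3 (N) and 28.2 (Q) CPM at the low dose and at 24.7 (C), 45.0 (I), 52.5 (O) and 40.8 (R) CPM at the high dose. In 3 of the 4 sets the high dose culture was higher than the low dose culture, and in A-B-C the levels were nearly equal. The fold change between the doses was 0.58 (SE 0.36, adjusted p = 1.0 by edgeR). Nsf, the ATPase that disassembles SNARE complexes, differed by 0.18 (SE 0.22) at the low and 0.26 (SE 0.22) at the high dose against untreated, and by -0.13 (SE 0.07) and -0.05 (SE 0.07) in the blocked fit without G.

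Most of the active zone and Rab3 genes had low dose differences of the same sign in the sets without G, some of them near 0. Unc13a differed by only -0.0093 in M-N-O and Rims2 by -0.025 in A-B-C, while Rims1, Rims3 and Rph3a had both signs. Of the 10 active zone and Rab3 genes, 7 were lower at the low dose than untreated in the 3 sets without G (Unc13a, Rims2, Rimbp2, Bsn, Pclo, Erc2 and Rab3a), against 13.7% of all genes. Relative to the neuron marker mean, only Rimbp2, Bsn and Pclo of these were lower in all 3. Rims2, Rimbp2, Bsn, Pclo and Erc2 were also higher at the high than at the low dose in all 4 sets, against 11.7% of all genes. Relative to the neuron marker mean, none of these was higher in all 4. The comparison with untreated and that between the doses share the low dose cultures. Bassoon (Bsn), a giant scaffold of the presynaptic matrix, was at 284 (A), 16.6 (G), 344 (M) and 281 (P) CPM untreated. It was at 246 (B), 189 (H), 281 (N) and 214 (Q) CPM at the low dose, and at 336 (C), 297 (I), 302 (O) and 332 (R) CPM at the high dose. The low and high dose cultures did not overlap. The log2 fold change between the doses was 0.39 (SE 0.37, adjusted p = 1.0 by edgeR), and 0.46 (SE 0.09, adjusted p = 0.0971) in the blocked fit without G. Its low dose fold change against untreated was 0.11 (SE 0.37) with G and -0.33 (SE 0.10, adjusted p = 0.644) in the blocked fit.

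Piccolo (Pclo), the partner of Bassoon, was at 65.6 (A), 8.30 (G), 117 (M) and 104 (P) CPM untreated. It was at 52.8 (B), 39.2 (H), 98.0 (N) and 76.4 (Q) CPM at the low dose, and at 94.4 (C), 81.1 (I), 100 (O) and 89.1 (R) CPM at the high dose. The difference between the doses was large in A-B-C and G-H-I and small in the others, and the groups overlapped. The fold change between the doses was 0.39 (SE 0.45, adjusted p = 1.0 by edgeR). Erc2, an ELKS scaffold, was at 26.8 to 41.6 CPM at the low and 33.5 to 43.8 CPM at the high dose, with a fold change of 0.31 (SE 0.17, adjusted p = 1.0 by edgeR).

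Rab3a, the small GTPase of the vesicle, and its effector Rph3a had other values. Rab3a was at 327 to 346 CPM in A, M and P and at 26.4 CPM in G, at 290 to 435 CPM at the low dose and at 285 to 380 CPM at the high dose. Its fold change between the doses was -0.05 (SE 0.31). Rph3a was at 16.7 (A), 1.62 (G), 122 (M) and 79.3 (P) CPM untreated. It was at 20.5 (B), 85.4 (H), 84.4 (N) and 72.4 (Q) CPM at the low dose, and at 15.9 (C), 59.9 (I), 74.9 (O) and 45.5 (R) CPM at the high dose. The high dose culture was the lowest of its set wherever G was not in the set. In the reported fit the high dose fold change against untreated was -0.02 (SE 0.89), and it was -0.58 (SE 0.14, adjusted p = 0.208 by edgeR's quasi-likelihood test) in the blocked fit without G.

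**Figure D5:**
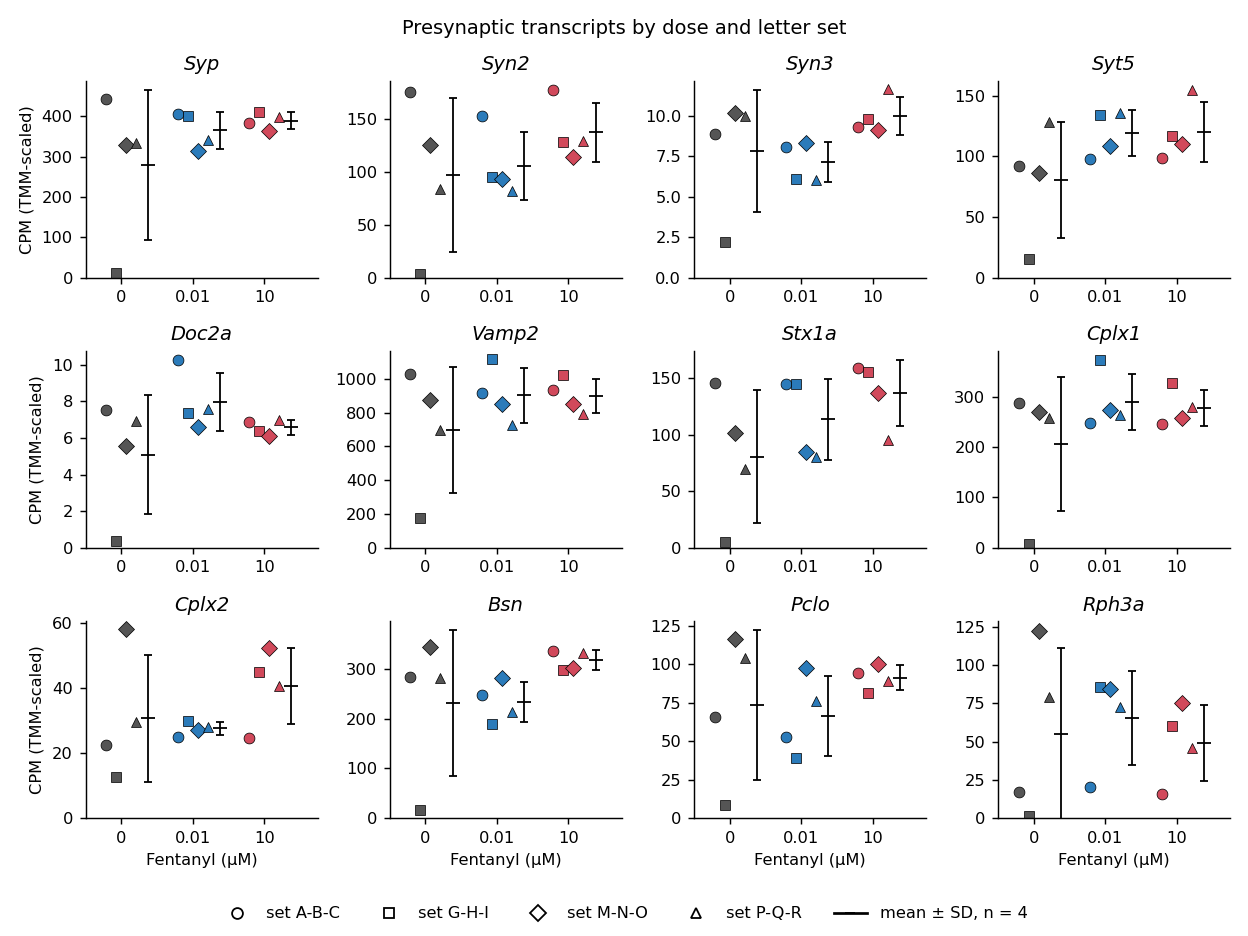
TMM-scaled CPM of 12 presynaptic genes by fentanyl dose, 1 symbol per culture shaped by letter set, with the mean ± SD of 4 cultures as bars. Untreated culture G (grey square) is the lowest point in each panel, and the red points lie above all blue points for Syn3 and Bsn.

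Of the 5 endocytic genes, 4 were lower at the low dose than untreated in the 3 sets without G (Dnm1, Amph, Synj1 and Snap91), against 13.7% of all genes. Relative to the neuron marker mean, only Dnm1 and Amph of these were lower in all 3. Dnm1, Amph and Snap91 were higher at the high than at the low dose in all 4 sets, against 11.7% of all genes. Relative to the neuron marker mean, Dnm1 and Amph but not Snap91 were higher in all 4 (2.55% of all genes). Dnm1 (dynamin 1, which pinches vesicles from the membrane) was at 856 (A), 54.3 (G), 752 (M) and 528 (P) CPM untreated. It was at 765 (B), 758 (H), 597 (N) and 500 (Q) CPM at the low dose, and at 820 (C), 831 (I), 802 (O) and 705 (R) CPM at the high dose. Within each set the high dose culture was above the low dose culture, with overlap between the groups, and the fold change was 0.30 (SE 0.32). Snap91 (AP180, a clathrin adaptor) ranged from 308 to 539 CPM in A, M and P, from 284 to 465 CPM at the low dose and from 316 to 487 CPM at the high dose, with a fold change between the doses of 0.13 (SE 0.26). Amphiphysin (Amph) had a fold change between the doses of 0.31 (SE 0.07, adjusted p = 0.127 by edgeR's quasi-likelihood test) in the blocked fit without G. Amph was singled out after its values were seen.

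Letter sets separated the cultures more than doses did, among the presynaptic genes as over all genes. Without G, the letter set accounted for a median of 79.3% of the variance of log2(CPM + 1) of a presynaptic gene and the dose for 9.09%, and the set share was the larger in 35 of the 39. Over all genes tested the medians were 75.3% and 7.96%, and the set share was the larger in 93.8%. The mean CPM differed by more than 2-fold between sets for 7 of the 39 (Sv2c, Syt2, Syt7, Doc2b, Vamp1, Rph3a and Bin1), against 24.4% of all genes. Rph3a averaged 17.7 CPM in A-B-C and 93.9 CPM in M-N-O, which is 5.31-fold. Syt7, a slow, high-affinity calcium sensor, averaged 81.7 CPM in A-B-C and 28.6 CPM in M-N-O. Bin1 averaged 192 CPM in A-B-C and 459 CPM in P-Q-R. The set A-B-C was thus high in Syt7 and low in Rph3a at all 3 doses.

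A wider list of 65 vesicle cycle genes outside the 39 held transporters, further synaptotagmins and release site proteins, of which 62 were tested. None was called in the reported fit by edgeR's quasi-likelihood test, and 1 in each comparison had an unadjusted p under 0.05. The median log2 fold changes of the 62 were 0.10, 0.18 and 0.07 at the low dose, at the high dose and between the doses. In the blocked fit without G they were -0.07 (15 of 62 higher), -0.0069 and 0.05, so both directions against untreated turned. In the 3 sets without G, 22 of the 62 were lower at the low dose than untreated, against 13.7% of all genes. Between the doses 10 were higher in all 4 sets and 7 were lower, against 11.7% and 11.1% of all genes.

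Slc17a6 (VGLUT2, a vesicular glutamate transporter) had the smallest p of these genes between the doses. It was at 20.2 (B), 26.6 (H), 22.8 (N) and 23.5 (Q) CPM at the low dose and at 14.7 (C), 11.1 (I), 9.09 (O) and 9.63 (R) CPM at the high dose. No high dose culture reached the level of any low dose culture. Untreated cultures were at 19.4 (A), 1.43 (G), 10.2 (M) and 23.1 (P) CPM and overlapped both. The log2 fold change between the doses was -1.09 (SE 0.27, adjusted p = 1.0 by edgeR). In the blocked fit without G, Slc17a6 was not called between the doses (adjusted p = 0.0876 by edgeR's quasi-likelihood test). The likelihood ratio test with blocks and no G, added after the data were seen, called it (-1.09, SE 0.22, adjusted p = 0.000142 by edgeR). That test called 1.35% of all genes between the doses. Of the 62 it also called Sncg, which was higher at the high dose than untreated, against 1.18% of all genes. Lin7c differed from untreated by -0.26 (SE 0.16) at the low dose and Nrxn2 by 0.19 (SE 0.10) at the high dose. Sypl2, at 0.195 to 2.61 CPM, differed by 1.05 (SE 0.45) at the high dose. These 3 had an adjusted p of 1.0 by edgeR in the reported fit.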

How the data were processed

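Poly(A) RNA libraries (Illumina TruSeq v2, a kit that does not mark strand) of 12 rat co-cultures were analysed. The authors deposited 1 table of raw gene counts, whole reads per gene, which their processing notes credit to STAR and featureCounts on rn6. The annotation and the counter's settings are not given in the sources used here, so reads shared between close paralogs or with antisense genes could not be separated. Of 17337 genes, 2226 had no count. Groups were taken from the labels. Counts were filtered (filterByExpr), scaled by TMM and tested in edgeR 4.0.16 (R 4.3.3) by the quasi-likelihood test with 1 RUVs factor, written out here after the published method and holding 41.0% of the variation within doses, in 1 fit over all 12 cultures with Benjamini-Hochberg adjustment over 12271 genes. The test was checked on simulated counts that held no letter set differences and no culture like G, so that check does not cover either. CPM carry an offset of 1 on the log2 scale. The exact test permuted cultures. Alternatives were other numbers of factors, DESeq2 1.42.0, filters, the letter sets as blocks and each culture left out.

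The genes and lists were chosen with earlier results of these data known. Genes named with their values were those with the highest mean CPM of their role, the smallest p in each comparison, a call in any alternative, or the lowest or highest level in culture G. Others given with values, such as Syt7, Bin1, Synj1, Stxbp5 and Amph, were singled out after their values were seen. Some genes of the wider vesicle list that this rule names are not reported here. No sequences or gene lengths were used here, so levels were compared within genes only. The counts limit precision for Syt2 and Doc2b.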

Additional observations from a re-analysis of the deposited data

Results flagged for a closer look

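Among 72 checks of a culture against the 3 others of its condition, 5 values stood far from the rest by Dixon's ratio, the gap to the nearest value divided by the range, past its critical value. Chance alone flags about 1 in 20 such checks. Some of the genes checked, Cplx1 among them, were named because they were lowest in culture G, so these checks are no independent evidence about G. Untreated culture G was the lowest for the mean over the presynaptic genes (ratio 0.934), Rab3a (0.940), Cplx1 (0.895) and Syn3 (0.837). Erc2 was highest in low dose culture B (0.846), at 41.6 CPM, while its set partners A and C were at 42.6 and 43.8 CPM.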

How the results depend on the processing

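Across 25 alternatives, no presynaptic gene was called at the low dose against untreated, and the median log2 fold change between the doses kept its sign. In the other comparisons 1 gene was called at the high dose against untreated with 4 RUVs factors (Stx1a, 0.50, adjusted p = 0.0153 by edgeR's quasi-likelihood test). That fit called 39 of all 12271 genes tested at the high dose against untreated. Between the doses it called 113 genes and none of the presynaptic ones studied here. With the letter sets as a replicate block, no G and the likelihood ratio test, Rph3a was called at the high dose against untreated (1.18% of all genes). Pclo was called between the doses (1.35%). The counts of the 39 with an unadjusted p under 0.05 moved most, from 2, 1 and 0 at the low dose, at the high dose and between the doses. They were 0 and 0 against untreated with no factor, 4 at the high dose and 3 between the doses with 2 factors, and 12, 13 and 18 with 4 factors. Over all 12271 genes tested the counts moved too, from 91, 146 and 144 in the reported fit. With 2 factors 464 genes were under 0.05 at the high dose and 497 between the doses, and with 4 factors 1209, 1336 and 2317 were. For the 39, the counts at the high dose were 2 with the likelihood ratio test, 2 with DESeq2 and 3 with no filter. They were 0, 3 and 2 with at least 10 counts in every culture, 0 and 0 against untreated with the replicate block, and 1, 2 and 3 with only the 8 cultures compared. They were 10, 3 and 16 with the block and no G by either test, where 930, 1163 and 1678 of 12337 genes were under 0.05 by the quasi-likelihood test. With no factor and no G the counts of the 39 were 0 at the high dose and 2 between the doses. The median at the low dose was -0.031 with 4 factors, -0.15 with the block and no G by either test, and -0.13 with no factor and no G, where the high dose median was -0.013. Leaving out 1 culture gave 1 to 5 genes at the low dose (5 without G, 4 without M, 1 without B, H, Q or R), 0 to 10 at the high dose (10 without M, 3 without R, 2 without A, P or N, 0 without I or O) and 0 to 5 between the doses (5 without G or N, 2 without P or R, 1 without M). Without M, 453 of 12366 genes were under 0.05 at the high dose. Without G, 245 of 12337 were at the low dose and 523 between the doses. The low dose median of the 39 ran from -0.14 (without G) to 0.45 with 1 culture left out, and was -0.05 without N. Cplx1 at the low dose was -0.031 with the block and no G by either test. Rph3a at the high dose against untreated was 0.11 with 2 factors, 0.011 with the likelihood ratio test, 0.0075 with DESeq2, 0.00023 with no filter and 0.10 with the block, and -0.57 to 1.05 with 1 culture left out, the highest without M. Between the doses it was -0.94 to 0.10, the highest without N. The cause was not tested. The settings without a factor and G, and with the likelihood ratio test, block and no G, were added after seeing the data.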

Other observations

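Ratios of counts between related presynaptic genes, compared only across cultures, also set G or a letter set apart. Cplx1 had 0.571 counts per count of Cplx2 in G, and 4.62 to 12.9 in the other 11 cultures. Syn2 had 1.65 counts per count of Syn3 in G and 8.43 to 19.9 elsewhere, and Sv2a had 4.25 per count of Sv2c in G and 31.2 to 119.7 elsewhere. Vamp2 per Vamp1 was 9.34 to 9.58 in A, B and C and 9.41 in G, but 3.43 to 5.96 in the other 8 cultures. No test was made of these ratios, which were chosen after the levels were seen.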
